A study of Mus musculus with 23 samples.

Results

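The genes described here are the chemokine receptors Cx3cr1, Ccr2 and Ccr1, the atypical receptor Ccrl2, and Cx3cl1, the ligand of Cx3cr1. They are 5 of the 36793 genes in the deposited tables and were listed by name, with earlier results of these data known. The name monocyte chemokine receptors suits 3 of them in the strict sense, because Ccrl2 does not signal as a chemokine receptor and Cx3cl1 is a ligand. All 5 had reads in every one of the 3 macrophage groups.

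The 23 RNA-seq libraries came from mouse head and neck tumour models and fell into 8 groups. Macrophages had been sorted by flow cytometry as CD45+ CD11b+ Gr1- F4/80hi cells from subcutaneous tumours of SCCVII, HPV+ MEER or HPV− MEER cells, with 3 libraries per model, each of cells pooled from 3 to 4 mice. SCCVII tumours grew in C3H/HeJ mice and both MEER tumours in C57/Bl6 mice, so strain and tumour model cannot be told apart in any SCCVII comparison. Colonies, labelled as macrophage progenitor colonies, had been grown from sorted macrophages for 9 days in haematopoietic stem cell medium, and gave 2 SCCVII and 3 HPV− libraries. The cultured SCCVII, HPV+ and HPV− tumour lines gave 3 libraries each, which were aliquots of a culture, so their p-values may measure technical spread only. No group carried an engineered allele or a drug treatment in the labels.

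Chemokine receptors are G protein-coupled receptors that steer leukocytes along gradients of small secreted proteins. Ccr2 brings classical Ly6C-high monocytes out of the bone marrow and into inflamed or tumour tissue in answer to Ccl2 and Ccl7. Cx3cr1 is high on patrolling monocytes, microglia and many tissue macrophages, and its ligand Cx3cl1 (fractalkine) is made as a membrane-bound adhesion protein that the proteases Adam10, Adam17 and cathepsin S can release. Ccr1 answers Ccl3, Ccl5, Ccl6 and Ccl9. Ccrl2 binds chemerin, the product of Rarres2, and presents it to cells that carry the signalling receptor Cmklr1, and it is induced in activated myeloid cells.

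Libraries held 26848759 to 47609481 expected counts, at which 3 counts correspond to 0.063 to 0.112 counts-per-million units (CPM). Such limits cover counting error only. Levels are given as CPM after TMM scaling, or as the deposited transcripts-per-million values (TPM) where genes are compared with each other. A gene was called changed at an adjusted p under 0.05 in edgeR's quasi-likelihood test over all genes that passed the count filter. Summed over 8 macrophage and sort-gate markers, the macrophage libraries held 11144 to 11955 CPM (SCCVII), 9849.9 to 10726 CPM (HPV+) and 9309.7 to 13069.6 CPM (HPV−). The tumour lines held 14 to 36.6 CPM. Library 4 of the HPV− macrophages stood apart from libraries 1 and 2 of its group, with a fibroblast marker sum of 65.4 CPM against 11.3 and 9.81 CPM. The colonies went against their label: HPV− colonies 2 and 3 held 81.6 and 34.8 CPM of the macrophage and gate markers and SCCVII colony 2 held 152 CPM, while HPV− colony 1 held 3199 CPM and SCCVII colony 1 held 1189 CPM. Fibroblast markers summed to 2124 and 3172 CPM in the SCCVII colonies and to 358 to 1268 CPM in the HPV− colonies. The same markers summed to 1319.5 to 1389.7 CPM in the cultured SCCVII line and to 63 to 139.5 CPM in the HPV− line. They are therefore not particular to fibroblasts in these libraries.

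Cx3cr1, Ccr2, Ccr1 and Ccrl2 all lie on mouse chromosome 9, and Cx3cl1 lies on chromosome 8. In GRCm38 coordinates with GENCODE M21 genes, Ccrl2 spans 111054486 to 111057519 on the minus strand and Ccr1 spans 123962124 to 123968692 on the minus strand. Ccr2 spans 124101950 to 124113557 on the plus strand, and Cx3cl1 spans 94772009 to 94782427 of chromosome 8 on the plus strand. Cx3cr1 spans 119901616 to 120069879 on the minus strand. This span overlaps Gorasp1, Csrnp1 and Xirp1 on the same strand. The expected counts of Cx3cr1 were nevertheless whole numbers in every library. Those of Ccr2 were not, with 30862 for Cx3cr1 and 17612.78 for Ccr2 in HPV− macrophage library 1.

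The stretches upstream of Ccrl2 and Ccr1 are shown because Ccrl2 was the receptor with the largest and Ccr1 the one with the smallest change between HPV+ and HPV− macrophages, and because those of the other members lie mostly inside annotated exons. The sequences are RefSeq's for GRCm38.p6, minus strand, at chr9:111057520-111057768 for Ccrl2 (249 bases) and chr9:123968693-123968942 for Ccr1 (250 bases). Capitals mark the letters of an NF-kappaB motif (GGACTTTCC) and of the core of a hypoxia response element (ACGTG, here read on the opposite strand).
Ccrl2: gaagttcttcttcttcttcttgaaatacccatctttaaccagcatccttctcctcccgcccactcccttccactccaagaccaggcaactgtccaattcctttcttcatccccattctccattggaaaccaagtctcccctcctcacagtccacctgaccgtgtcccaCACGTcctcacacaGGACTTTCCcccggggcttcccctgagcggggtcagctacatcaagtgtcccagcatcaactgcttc
Ccr1: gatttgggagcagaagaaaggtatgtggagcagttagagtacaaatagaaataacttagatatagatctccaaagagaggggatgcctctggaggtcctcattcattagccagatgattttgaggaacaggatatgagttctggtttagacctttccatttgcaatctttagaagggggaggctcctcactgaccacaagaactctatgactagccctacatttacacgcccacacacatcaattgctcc

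The motifs were chosen after the sequences had been seen, and 7 were searched on both strands of the 250 bases before each start. All 5 members matched a RefSeq entry, with 7 entries in total. GGACTTTCC was found in 0.283% of the 32851 windows of that length and ACGTG in 16.6%. Ccrl2 had RefSeq starts 1, 2 and 3, and the stretch shown lies before start 1. The NF-kappaB letters lay 68 to 60 bases before start 1 and were not in the windows of starts 2 and 3. ACGTG was in the windows of all Ccrl2 starts. The PU.1 letters GAGGAAGT (2.44% of all windows), the AP-1 letters TGANTCA (6.75%) and the C/EBP letters TTGCNNAA (9.56%) were in no member's window, nor was the interferon-stimulated response element (2.98%). TATAAA, found in 12.4%, was in that of Cx3cl1. It lay 6 to 1 bases before the RefSeq start, among the 171 bases of that window inside annotated exons. A match is a string of letters and was not tested as a binding site.

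Macrophages of HPV+ tumours carried less Cx3cr1 and Ccr2 and far more Ccrl2 than macrophages of HPV− tumours, while Ccr1 did not pass the test. Of the 5 members, 1 rose and 2 fell, where 48.7% of the 14085 genes tested passed, 22.8% higher and 25.9% lower. Macrophages of SCCVII tumours had the opposite receptor make-up, with high Cx3cr1 and Ccr2, low Ccr1 and very low Ccrl2. Against HPV− macrophages 2 members rose and 3 fell, where 39.2% of genes passed, 18.7% higher and 20.5% lower. Against HPV+ macrophages 2 rose and 3 fell, where 63.2% passed, 32.2% higher and 30.9% lower. When all 23 libraries, the variable colonies included, were fitted together, Ccrl2 stayed called in HPV+ over HPV− macrophages (adjusted p = 0.00092), while Cx3cr1 (adjusted p = 0.12) and Ccr2 (0.6) did not. In SCCVII over HPV− macrophages none of the 4 receptors passed that fit (adjusted p 0.12 to 0.69), and in SCCVII over HPV+ macrophages Ccr1 (0.088) and Ccr2 (0.22) did not. The 3 comparisons share their libraries and are not independent of each other. In bulk libraries, fewer cells of a type and less RNA per cell cannot be told apart.

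**Figure D1:**
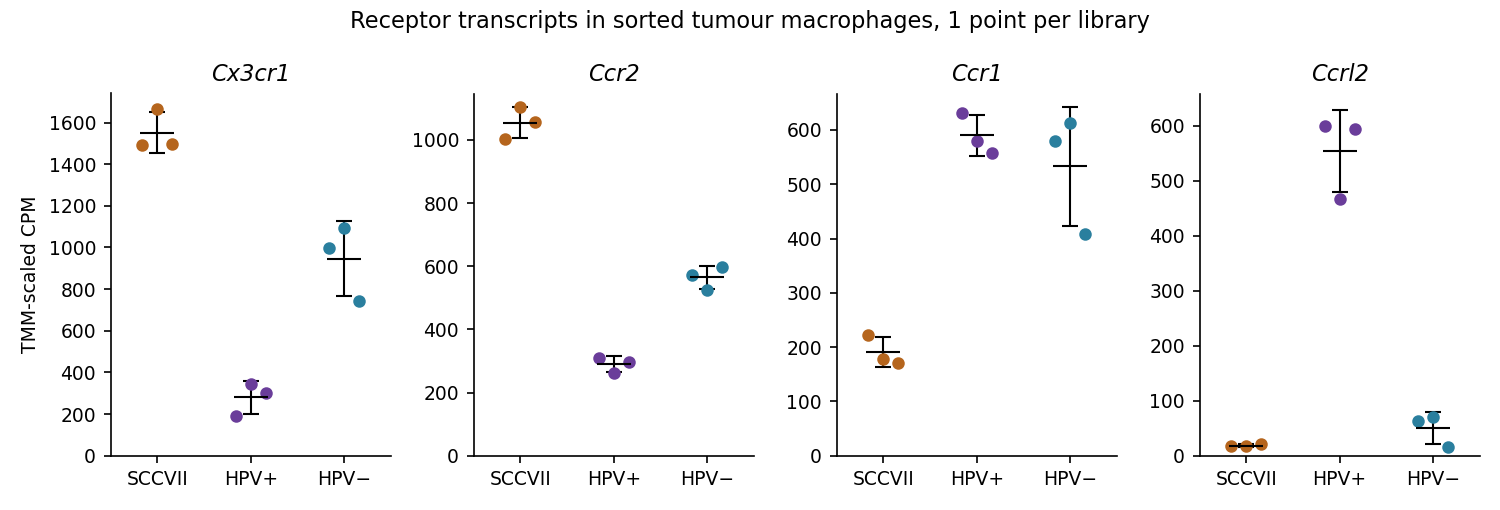
Receptor transcripts in the 9 macrophage libraries. Each point is 1 library in TMM-scaled CPM on a linear axis from 0, and lines show the mean ± SD of 3 libraries; Cx3cr1 and Ccr2 are highest in SCCVII (means 1552 and 1055 CPM) and Ccrl2 is highest in HPV+ macrophages (mean 554 CPM).

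Cx3cr1 stood at 1494, 1666 and 1495 CPM in the SCCVII macrophages, at 191, 346 and 302 CPM in the HPV+ macrophages and at 999.8, 1092 and 745 CPM in the HPV− macrophages. The 3 groups did not overlap, and the highest HPV+ library lay well below the lowest HPV− library. Relative to HPV− macrophages, Cx3cr1 fell by 1.73 on the log2 scale in HPV+ macrophages (SE 0.21, adjusted p = 0.00015). SCCVII exceeded HPV− macrophages by a log2 change of 0.70 ± 0.21 (SE, adjusted p = 0.024), a call that was lost when any SCCVII library was left out (adjusted p 0.052 to 0.076). Against HPV+ macrophages the SCCVII level was higher by 2.43 ± 0.22 (SE, adjusted p = 8.8e-06).

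Ccr2, the receptor of classical monocyte recruitment, followed the same group order with tighter replicates. Its level was 1003, 1103 and 1058 CPM in SCCVII macrophages, 310.4, 263 and 297 CPM in HPV+ macrophages and 571, 524 and 598 CPM in HPV− macrophages. No group overlapped another. HPV+ macrophages differed from HPV− macrophages by a log2 change of −0.94 ± 0.08 (SE, adjusted p = 2.5e-05), a 1.91-fold lower level. SCCVII macrophages were higher than HPV− macrophages by 0.88 ± 0.08 (SE, adjusted p = 5.1e-05) and higher than HPV+ macrophages by 1.82 ± 0.09 (SE, adjusted p = 1.6e-07).

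Ccr1, the receptor of the Ccl3 and Ccl5 type of chemokine, was low in SCCVII alone among the macrophage groups. It measured 223, 178 and 171 CPM in SCCVII macrophages, 632, 580.3 and 558 CPM in HPV+ macrophages and 579, 613 and 408 CPM in HPV− macrophages. The HPV+ and HPV− ranges overlapped, with a log2 change of 0.17 ± 0.15 (SE, adjusted p = 0.37) and of 0.02 without HPV− library 4. Its sign also depended on the scaling, since the log2 ratio of unscaled CPM was −0.07. SCCVII macrophages were lower than HPV− macrophages, with a change of −1.50 ± 0.15 (log2, SE, adjusted p = 7.4e-05) and lower than HPV+ macrophages, with a change of −1.67 ± 0.15 (SE, adjusted p = 1.1e-05).

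Ccrl2, the chemerin-presenting receptor, had the largest change of the 4 receptors in HPV+ over HPV− and in SCCVII over HPV+ macrophages. It measured 17.5, 16.7 and 21.0 CPM in SCCVII macrophages, 599.9, 468 and 594 CPM in HPV+ macrophages and 63.3, 69.6 and 16.4 CPM in HPV− macrophages. Every HPV+ library stood far above every other library, while HPV− library 4 lay inside the SCCVII range. The log2 change of HPV+ over HPV− macrophages was 3.51 ± 0.44 (SE, adjusted p = 0.00018), an 11.4-fold difference, and was 3.09 ± 0.13 without HPV− library 4. SCCVII macrophages were lower than HPV+ macrophages, with a change of −4.96 ± 0.47 (SE, adjusted p = 1.4e-05). Against HPV− macrophages their change was −1.45 ± 0.42 (SE, adjusted p = 0.022). That last call rested on which libraries were used: the adjusted p was 0.069 without HPV− library 1, 0.072 without HPV− library 2 and 0.053 to 0.076 without 1 of the SCCVII libraries, and 1.5e-06 without HPV− library 4, at a change of −1.87.

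**Figure D2:**
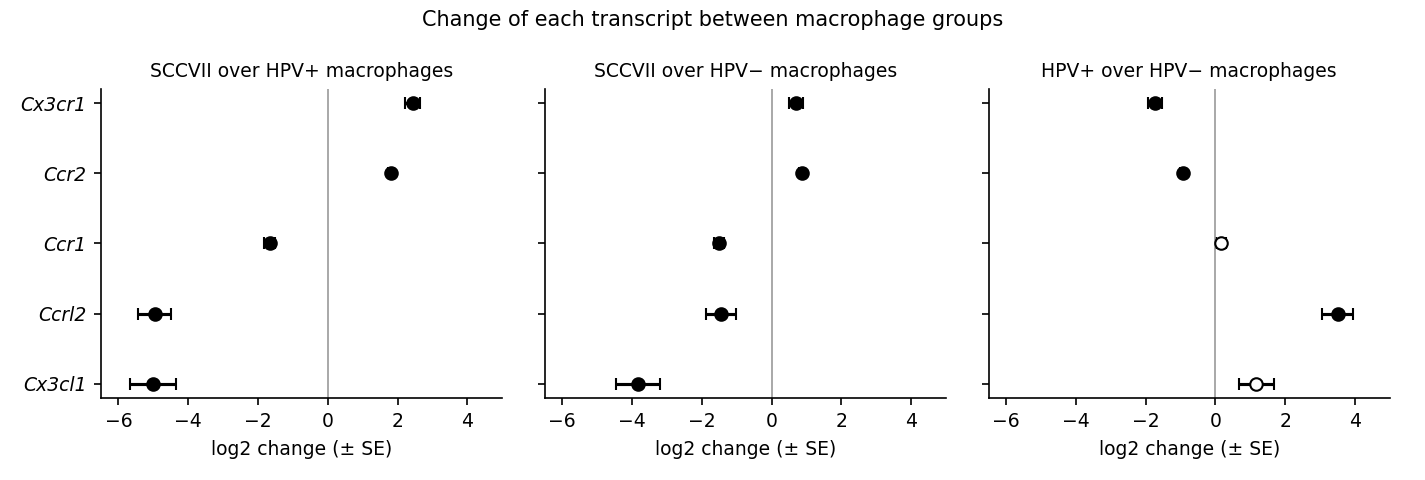
Log2 change of the 5 transcripts between macrophage groups in edgeR, with bars of ± 1 SE. Filled points passed an adjusted p of 0.05 and open points did not; only Ccr1 and Cx3cl1 in HPV+ over HPV− are open.

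Set against each other per transcript length, the 4 receptors summed to 1361, 1409.6 and 1297 TPM in SCCVII, 859, 801 and 866 TPM in HPV+ and 1067, 1078 and 904 TPM in HPV− macrophages. Ccrl2 made up 0.895 to 1.22% of that sum in SCCVII macrophages, and 44.1, 37.1 and 43.5% in HPV+ macrophages, against 4.41, 4.67 and 1.46% in HPV− macrophages. It was the most abundant of the 4 receptors in each HPV+ library, at 1.29, 1.09 and 1.44 times the TPM of Ccr1. Cx3cr1 led in every other macrophage library, with 54.8 to 56.7% of the sum in SCCVII macrophages, and it held 8.54 to 16.7% in HPV+ macrophages, against 40.2 to 44.2% in HPV− macrophages. Ccr2 held 34.6 to 36.5% in SCCVII, 12.2 to 13.1% in HPV+ and 20.8 to 31.4% in HPV− macrophages. Ccr1 held 7.07 to 9.54% in SCCVII, 30.2 to 34.3% in HPV+ and 27 to 30.3% in HPV− macrophages.

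**Figure D3:**
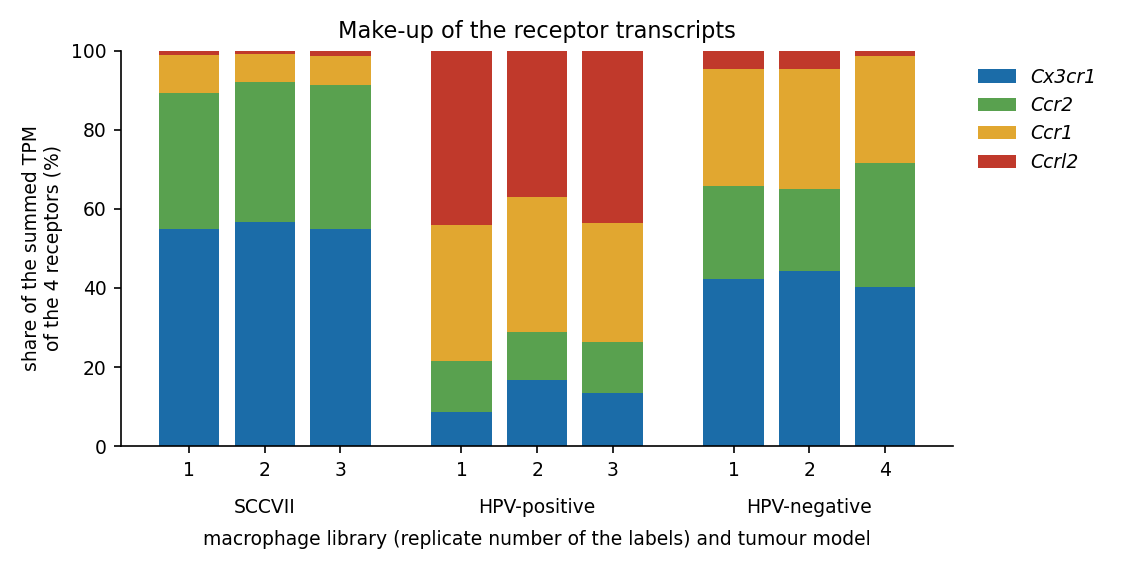
Share of each receptor in the summed TPM of Cx3cr1, Ccr2, Ccr1 and Ccrl2, 1 bar per macrophage library in percent. Ccrl2 takes 37.1 to 44.1% in HPV+ libraries and 4.67% or less elsewhere.

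Cx3cl1, the ligand, was a minor transcript in the sorted macrophages. It measured 0.48, 0.331 and 0.512 CPM in SCCVII, 15.2, 11.8 and 14.7 CPM in HPV+ and 2.56, 3.24 and 12.7 CPM in HPV− macrophages. HPV− library 4 lay within the HPV+ range and the other 2 HPV− libraries well below it. HPV+ over HPV− macrophages gave a log2 change of 1.18 ± 0.51 (SE, adjusted p = 0.085), which was 2.29 ± 0.19 (adjusted p = 6.6e-06) without HPV− library 4. SCCVII macrophages were lower than HPV− macrophages, with a change of −3.83 ± 0.64 (SE, adjusted p = 0.0014; −2.72 without HPV− library 4) and lower than HPV+ macrophages, with a change of −5.01 ± 0.66 (SE, adjusted p = 0.00011).

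Markers of several other cell types also differed in level between these groups. The 6 dendritic cell markers summed to 5.12 to 8.73 CPM in SCCVII, 60.9 to 195 CPM in HPV+ and 10.3 to 15.8 CPM in HPV− macrophages, with 4, 6 and 5 of the 6 at 1 CPM or more. Ccr7, which is 1 of them, alone averaged 1.03, 99.5 and 5.47 CPM in that order. In HPV+ over HPV− macrophages 4 of the 6 rose and none fell, where 48.7% of all genes tested passed and 22.8% were higher. NK cell markers summed to 0.793 to 2.22 CPM in SCCVII, 34.9 to 68.1 CPM in HPV+ and 13.3 to 25.5 CPM in HPV− macrophages. That sum is not particular to NK cells, since it was 38.1 to 63.4 CPM in the cultured HPV+ line, with Ncr1, Gzma and Prf1 at 0. The 6 epithelial markers summed to 106 to 129 CPM in SCCVII, 425 to 554 CPM in HPV+ and 75.3 to 145 CPM in HPV− macrophages. Of these, Cdh1 alone held 55 to 87.3 CPM in SCCVII, 367 to 497 CPM in HPV+ and 44.5 to 66.4 CPM in HPV− macrophages. The keratin gene Krt8 lay at 17.7 to 24.1, 22 to 27.3 and 13.4 to 59 CPM and Krt18 at 23.2 to 27.2, 26.8 to 31.6 and 10.6 to 39.8 CPM in that order, so that the HPV+ range lay inside the HPV− range for both, and Krt5 was at 0 in every HPV− macrophage library. Neutrophil markers summed to 36.1 to 36.8 CPM in SCCVII, 62.7 to 75.5 CPM in HPV+ and 43.5 to 62.3 CPM in HPV− macrophages, with Camp at 0 in all 3 groups and S100a9 at 0 in SCCVII. Endothelial markers summed to 14.3 to 19.2 CPM in SCCVII, 141 to 169 CPM in HPV+ and 19.2 to 37.5 CPM in HPV− macrophages. Pecam1 made up 133 to 158 CPM of the HPV+ sum, while Cdh5 lay at 2.29 to 2.74, 1.8 to 2.24 and 4.09 to 5.6 CPM in the 3 groups. Eosinophil markers summed to 1.13 to 1.43 CPM in SCCVII, 46.8 to 67 CPM in HPV+ and 3.64 to 5.36 CPM in HPV− macrophages, nearly all of the HPV+ sum being Siglecf, with Epx at 0 in all 3 groups. T cell markers summed to 4.23 to 10.1 CPM in SCCVII, and to 38.8 to 58.1 CPM in HPV+ and 30.4 to 64.2 CPM in HPV− macrophages, which overlapped. The part of these cells in the levels of the receptors and of Cx3cl1 was not tested. The 4 microglia-type markers, P2ry12 among them, summed to 1374 to 1526 CPM in SCCVII, 459 to 534 CPM in HPV+ and 648 to 819.6 CPM in HPV− macrophages, with Sall1 at 0 throughout.

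Transcripts of ligands of the receptors were also present in the macrophage libraries, and which cells made them was not tested. Of 10 listed ligands, 8 passed the filter (Rarres2 and Ccl19 did not). In HPV+ over HPV− macrophages 3 rose and 5 fell, with a median log2 change of −1.62 against −0.05 over all genes tested. Each of the 4 ligands of Ccr2 fell there, with log2 changes of −1.79 ± 0.08 for Ccl2, −2.14 ± 0.11 for Ccl7, −2.08 ± 0.53 for Ccl8 and −1.44 ± 0.26 for Ccl12 (SE). Ccl7 averaged 50.3 CPM in HPV+ and 225 CPM in HPV− macrophages. Ccl3, which acts on Ccr1, rose by 2.39 ± 0.22 to 195 CPM in HPV+, against 37.9 CPM in HPV− macrophages, and Ccl5 rose by 1.11 ± 0.29 to 77.7 CPM, against 36.7 CPM. All 8 fell in SCCVII over HPV− macrophages, with a median of −2.22 against −0.02 over all genes. Ccl6 averaged 43.1 CPM in SCCVII and 391 CPM in HPV− macrophages, and Ccl8 averaged 9.56 and 117 CPM. Set against HPV+ macrophages, SCCVII macrophages had 3 that rose, among them Ccl7 by 0.94 ± 0.11 and Ccl2 by 0.79 ± 0.08, and 4 fell, led by Ccl3 at −5.30 ± 0.26 and Ccl5 at −4.08 ± 0.34. Beside these counts, 48.7% of all genes were called in HPV+ over HPV−, 39.2% in SCCVII over HPV− and 63.2% in SCCVII over HPV+ macrophages.

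**Figure D4:**
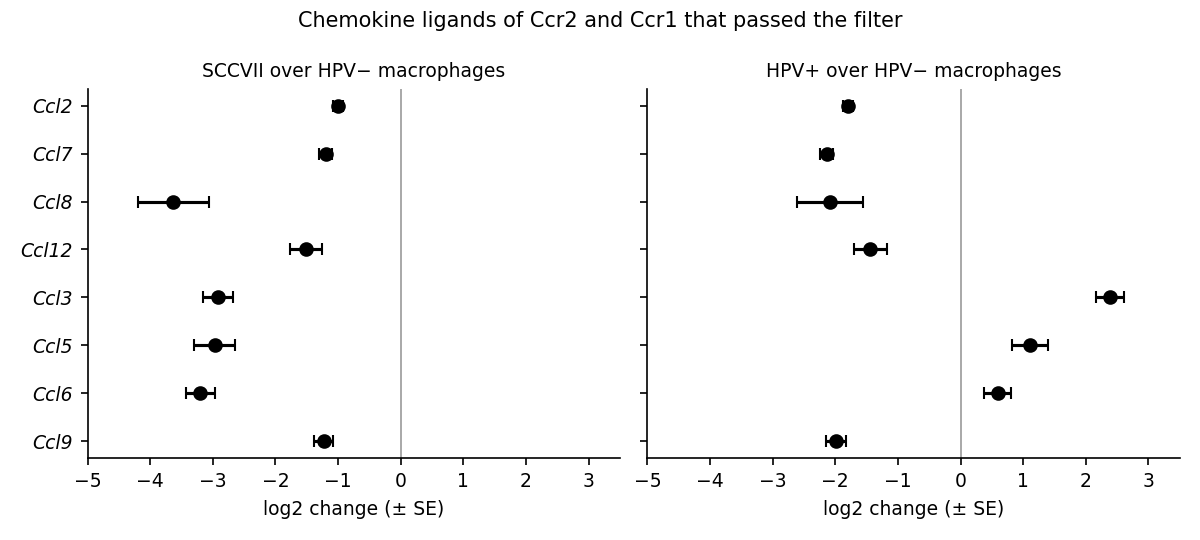
Log2 change (± SE, edgeR) of the 8 ligands of Ccr2 and Ccr1 that passed the count filter, for SCCVII over HPV− and HPV+ over HPV− macrophages. All 8 lie below 0 in SCCVII, and in HPV+ only Ccl3, Ccl5 and Ccl6 lie above 0.

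Of 12 other chemokine receptors tested, 4 rose and 2 fell in HPV+ over HPV− macrophages, none rose and 6 fell in SCCVII over HPV−, and 1 rose and 6 fell in SCCVII over HPV+. Ccr7, a receptor of mature dendritic cells, averaged 99.5 CPM in HPV+ and 5.47 CPM in HPV− macrophages, a log2 change of 4.2 ± 0.47 (SE, adjusted p = 8.7e-05). It is also among the dendritic cell markers summed above. Ackr3, a scavenger of Cxcl12, averaged 15.4 and 6.43 CPM. Among 5 tested neighbours of the chromosome 9 receptor genes, none rose and 1 fell in HPV+ over HPV−, none rose and 3 fell in SCCVII over HPV−, and 1 rose and 2 fell in SCCVII over HPV+. For both lists, the shares of all genes tested that passed were 48.7%, 39.2% and 63.2% in that order of comparisons.

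Of 13 genes that act on the receptors' signal, 6 rose, 1 fell and 6 did not pass in HPV+ over HPV− macrophages, a share near the 48.7% of all genes tested that passed. Rgs1, a GTPase-activating protein that damps chemokine receptor signalling, averaged 2066 CPM in HPV+ and 504 CPM in HPV− macrophages (log2 change 2.06 ± 0.44), and Rgs2 averaged 649 and 217 CPM (1.60 ± 0.18). Nup85, reported to bind Ccr2, fell by 0.27 (SE 0.09). The same genes in SCCVII over HPV− macrophages counted 4 that rose and 2 that fell, with Gnai2, a G protein alpha subunit, at 0.34 ± 0.07 and Rgs1 at −1.33 ± 0.44. In that comparison 39.2% of all genes tested passed. The chemerin receptor Cmklr1 rose by 0.76 ± 0.13 in HPV+ over HPV− macrophages, to 403 CPM in HPV+ against 242 CPM in HPV−. Of the proteases that cut fractalkine, Ctss rose by 0.53 ± 0.15, and Adam17 and Adam10 fell, with changes of −0.36 ± 0.07 and −0.28 ± 0.09. Adam17 and Adam10 rose in SCCVII over HPV− macrophages, by 0.45 ± 0.07 and 0.28 ± 0.08.

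Within each of the 2 monocyte classes, some genes rose and others fell in each macrophage comparison. Of all genes tested, 48.7% passed in HPV+ over HPV− and 39.2% in SCCVII over HPV− macrophages. Of 9 classical monocyte genes, 4 rose and 2 fell in HPV+ over HPV− macrophages, with Plac8 at 75.2 CPM in HPV+ and 16.4 CPM in HPV− macrophages and S100a4 at 118 and 668 CPM. Of 8 nonclassical genes, 2 rose and 1 fell: Nr4a1, a transcription factor needed for nonclassical monocytes, averaged 459 and 59.8 CPM, the integrin gene Itgal averaged 636 and 209 CPM, and the sialophorin gene Spn averaged 23.7 and 70.3 CPM. In SCCVII over HPV− macrophages, 1 classical gene rose and 4 fell, and 3 nonclassical genes rose and 4 fell. Fn1 averaged 1413 CPM in SCCVII and 6177 CPM in HPV− macrophages, Spn averaged 240.4 and 70.3 CPM, and Nr4a1 averaged 13.4 and 59.8 CPM. The classical genes leaned most to 1 side in SCCVII over HPV+ macrophages, where 2 rose and 6 fell. Their median log2 change was −2.41 there, against 0.01 over all genes tested. Of the nonclassical genes, 3 rose and 4 fell in that comparison, in which 63.2% of all genes tested passed.

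Every colony library held less of each receptor, and more of the ligand, than every macrophage library of its model. In HPV− colonies against HPV− macrophages, 3 of the 5 members fell (Cx3cr1, Ccr1 and Ccrl2) and 1 rose, where 62.7% of 16239 genes passed, 33.9% higher and 28.7% lower. In SCCVII colonies against SCCVII macrophages, 2 fell (Cx3cr1 and Ccr2) and 1 rose, where 51.9% passed, 29.7% higher and 22.2% lower. Cx3cl1 was the member that rose in each. The HPV− colony libraries were deposited apart from all the others. In any comparison that uses them, this cannot be told apart from the group.

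**Figure D5:**
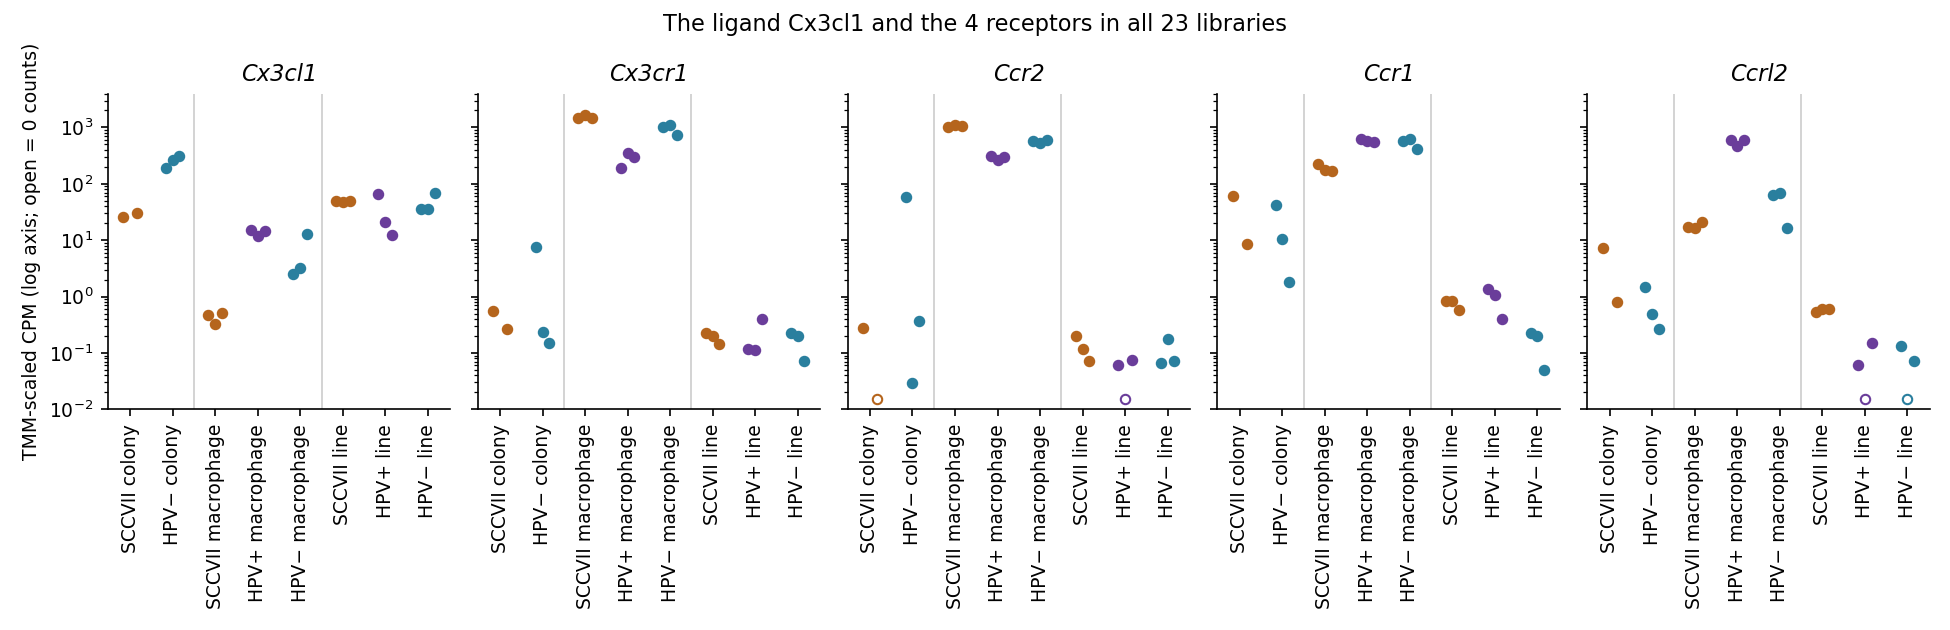
Levels of Cx3cl1 and the 4 receptors in all 23 libraries, as TMM-scaled CPM on a log axis; open points at the foot are libraries with 0 counts. The receptors peak in the macrophage groups, while Cx3cl1 is highest in the HPV− colonies (190.1 to 312 CPM) and lowest in the SCCVII macrophages (0.331 to 0.512 CPM).

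Cx3cl1 measured 25.6 and 30.7 CPM in SCCVII colonies, against 0.48, 0.331 and 0.512 CPM in SCCVII macrophages, a log2 change of 5.98 ± 0.69 (SE, adjusted p = 0.00014). It measured 190.1, 264 and 312 CPM in HPV− colonies, against 2.56, 3.24 and 12.7 CPM in HPV− macrophages, a change of 5.34 ± 0.62 (SE, adjusted p = 0.00019), and of 6.49 without HPV− macrophage library 4. No colony overlapped a macrophage library. The colony models differed from each other: SCCVII colonies were lower than HPV− colonies, with a change of −3.17 ± 0.66 (log2, SE, adjusted p = 0.0056), in a comparison where 40.3% of genes passed. Model, strain and the separate deposit of the HPV− colonies cannot be told apart here. The difference between the models in the colony change itself was 0.65 ± 0.82 (SE, adjusted p = 0.61), where 24.1% of genes passed and no member did. Epithelial markers summed to 179.6 and 265 CPM in SCCVII colonies, against 106 to 129 CPM in SCCVII macrophages, and to 317 to 411 CPM in HPV− colonies, against 75.3 to 145 CPM in HPV− macrophages. Their part in the Cx3cl1 level, and that of the fibroblast markers given above, was not tested.

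Cx3cr1 measured 0.547 and 0.27 CPM in SCCVII colonies and 7.66, 0.234 and 0.151 CPM in HPV− colonies, so that every colony but HPV− colony 1 was below 1 CPM. The log2 change against macrophages was −11.90 ± 2.15 in SCCVII (SE, adjusted p = 0.0017) and −8.39 ± 1.53 in HPV− (SE, adjusted p = 0.0016), and −12.22 ± 0.43 in HPV− without colony 1. Ccr2 measured 0.274 and 0 CPM in SCCVII colonies and 57.4, 0.0293 and 0.362 CPM in HPV− colonies. HPV− colony 1, the library that also held the macrophage markers, supplied nearly all of that. The Ccr2 change was −4.81 ± 1.95 in HPV− (SE, adjusted p = 0.056), and −11.47 ± 0.94 (adjusted p = 1.9e-05) without colony 1. In SCCVII it was −12.99 ± 3.4 (SE, adjusted p = 0.011), a fitted value from counts of 7.13 and 0 in the colonies that is no exact fold, and it was −18.13 (adjusted p = 0.044) without SCCVII colony 1 and had an adjusted p of 0.073 without SCCVII colony 2.

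Ccr1 was detected in every colony, at 60.9 and 8.7 CPM in SCCVII colonies and 41.4, 10.3 and 1.81 CPM in HPV− colonies. Its log2 change against macrophages was −2.47 ± 1.18 in SCCVII (SE, adjusted p = 0.11) and −4.86 ± 1.12 in HPV− (SE, adjusted p = 0.005). Leaving out 1 library moved it between −4.44 (without SCCVII colony 1) and −1.67 (without SCCVII colony 2) in SCCVII, with no call in either, and between −6.44 (without HPV− colony 1) and −4.27 (without HPV− colony 3) in HPV−. Ccrl2 measured 7.42 and 0.81 CPM in SCCVII colonies and 1.47, 0.497 and 0.271 CPM in HPV− colonies. Colony 1 of each model, the library richer in macrophage markers, held the highest value of its group for both receptors. Its change was −2.18 ± 0.99 in SCCVII (SE, adjusted p = 0.094), −4.48 with an adjusted p of 0.02 without SCCVII colony 1, and −1.32 with an adjusted p of 0.32 without SCCVII colony 2. In HPV− it was −5.98 ± 1.02 (SE, adjusted p = 0.0011), and −6.98 without HPV− colony 1.

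Among the listed genes, Cxcr4, the receptor of Cxcl12, fell in both colony types against their macrophages, to 5.27 CPM in SCCVII colonies against 96.7 CPM in SCCVII macrophages, and to 2.05 CPM in HPV− colonies against 131 CPM in HPV− macrophages. Of 13 signalling genes, 7 fell in SCCVII and 10 in HPV− colonies and none rose. Over all genes tested, 51.9% passed in SCCVII (22.2% lower) and 62.7% in HPV− colonies (28.7% lower). Rgs1 averaged 2.2 CPM in SCCVII colonies against 203 CPM in their macrophages, and 2.77 CPM in HPV− colonies against 504 CPM. Of 9 ligands tested, 3 rose and 1 fell in SCCVII colonies and 1 rose and 2 fell in HPV− colonies. Ccl6 averaged 2706 CPM in SCCVII colonies against 43.1 CPM in SCCVII macrophages, Ccl8 averaged 180.4 and 9.56 CPM, and Ccl12 averaged 0.147 and 91.7 CPM. In HPV− colonies Ccl8 averaged 6.13 CPM, against 117 CPM in HPV− macrophages.

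In the cultured tumour lines no receptor exceeded 1.35 CPM in any library, and Cx3cl1 was expressed. Cx3cr1 lay between 0.0735 and 0.403 CPM and Ccr2 between 0 and 0.199 CPM in all 9 lines' libraries, and both fell below the count filter in the comparisons among lines. Macrophages exceeded the line of their own model for all 4 receptors, where 73% (SCCVII), 78.8% (HPV+) and 76.1% (HPV−) of 15835 genes passed, and 37.4%, 39.6% and 38.7% were higher. The fitted log2 changes, which rest on low line counts, were 13.07, 10.45 and 12.59 for Cx3cr1 and 13.05, 12.66 and 12.47 for Ccr2 in SCCVII, HPV+ and HPV−. They were 8.11, 9.48 and 11.85 for Ccr1 and 5.10, 12.96 and 9.58 for Ccrl2. The Ccrl2 change was smallest in SCCVII, the model with the lowest mean Ccrl2 in macrophages and the highest in lines.

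Cx3cl1 ran the other way. It measured 48.8, 47.2 and 49.7 CPM in SCCVII lines, 65.3, 21.4 and 12.3 CPM in HPV+ lines and 35.7, 35.8 and 67.4 CPM in HPV− lines. The ranges of the 3 lines overlapped, and no comparison among lines passed, with adjusted p of 0.44 to 0.97. HPV+ line library 1 decided this in part, since without it the HPV+ line was lower than the HPV− line, with a change of −1.48 (log2, adjusted p = 0.0039). Macrophages were lower than their line, with a change of −6.64 ± 0.78 in SCCVII (log2, SE, adjusted p = 1e-06) and −2.78 ± 0.59 in HPV− (SE, adjusted p = 0.00043; −3.86 without HPV− macrophage library 4). The HPV+ change was −1.08 ± 0.55 (SE, adjusted p = 0.084), and ran from −0.11 (adjusted p = 0.84) without HPV+ line 1 to −1.48 (adjusted p = 0.02) without HPV+ line 3.

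Among lines, 3 of the 5 members were testable. In HPV+ over HPV− lines 1 rose, where 47% of 14396 genes passed and 23.2% were higher, and in SCCVII over HPV− lines 2 rose, where 58.8% passed and 27.2% were higher. In SCCVII over HPV+ lines 1 rose, where 64% passed and 29.9% were higher. Ccr1 measured 0.826, 0.84 and 0.571 CPM in SCCVII lines, 1.35, 1.06 and 0.403 CPM in HPV+ lines and 0.23, 0.204 and 0.049 CPM in HPV− lines. It was higher than in HPV− lines by a log2 change of 2.14 ± 0.61 in SCCVII (SE, adjusted p = 0.012) and 2.55 ± 0.61 in HPV+ (SE, adjusted p = 0.0061). Ccrl2 measured 0.541, 0.608 and 0.607 CPM in SCCVII lines, 0.06, 0 and 0.151 CPM in HPV+ lines and 0.132, 0 and 0.0735 CPM in HPV− lines. All 3 SCCVII line libraries were above the floor, with a log2 change of 2.86 ± 0.79 over HPV+ lines (SE, adjusted p = 0.0091) and 2.97 ± 0.81 over HPV− lines (SE, adjusted p = 0.0094). All these line levels were at or below 1.35 CPM. In the test of whether the HPV+ over HPV− change differed between macrophages and lines, 2 of the 5 members passed, Cx3cr1 and Ccr1, where 41% of 15835 genes passed.

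Over all 8 groups, Cx3cr1 and Ccr2 ran from SCCVII to HPV− to HPV+ macrophages with no overlap of neighbours, and every colony and line library lay below every macrophage library. Ccr1 ran from HPV+ and HPV− macrophages, which overlapped, to SCCVII macrophages. Ccrl2 ran from HPV+ macrophages to HPV− and SCCVII macrophages, which overlapped. Cx3cl1 was highest in HPV− colonies, followed by the 3 lines and the SCCVII colonies, whose ranges overlapped with their neighbours in that order, and then by the HPV+ and HPV− macrophages, which overlapped, and the SCCVII macrophages. Colony and line ranges of Cx3cr1 and Ccr2 overlapped with their neighbours.

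The genes whose levels ran most like a member's over the 23 libraries were found by Pearson's r of log2(CPM + 1) among 11165 genes, as a description in which libraries share group and tissue. P2ry12, P2ry13 and Cacna1d were nearest to Cx3cr1 (r 0.998, 0.996 and 0.996), and Susd3, Rcsd1 and Cysltr1 to Ccr2 (0.997, 0.996 and 0.995). Fcgr3, Fcgr2b and Nostrin were nearest to Ccr1 (0.995, 0.992 and 0.991), Ipcef1, Tm4sf5 and Adora3 to Ccrl2 (0.991, 0.983 and 0.983), and Ltbp3, Ccdc157 and Mgst2 to Cx3cl1 (0.948, 0.924 and 0.923). P2ry12 averaged 103 CPM in SCCVII, 32.9 CPM in HPV+ and 93.2 CPM in HPV− macrophages. Over the 9 macrophage libraries alone, among 9260 genes, the nearest were Otud6b to Cx3cr1 (0.998), Smc3 to Ccr2 (0.997), Cd300ld to Ccr1 (0.993) and Gpc1 to Cx3cl1 (0.997). With 9 libraries in 3 groups, such values mostly reflect the 3 group levels.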

How the data were processed

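Expected counts and TPM per gene were deposited by the authors as 2 tables, with the HPV− colonies in their own table and headers of the RSEM kind, per the file headers. RSEM 1.3.0, STAR 2.5.3a, MultiQC, FastQC and the build mm10/GRCm38 are listed, with no role, per the submitters' processing notes, and the labels' protocols name a stranded TruSeq mRNA kit and RNeasy columns. Neither an annotation release nor a strand setting is named there. Expected counts (13.1% not whole) were rounded, and libraries held 26848759 to 47609481 of them. Gene IDs were mapped to symbols for 95.8% of 36793 genes. No 2 replicates were the same library, since chi-square per gene was 3.23 or more for every pair.

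In R 4.3.3, edgeR 4.0.16 quasi-likelihood tests with TMM scaling were fitted to 9 macrophage, 9 line, 11 colony and macrophage, and 18 macrophage and line libraries, after filterByExpr (minimum count 10, minimum total 15), with Benjamini-Hochberg adjustment over all genes tested, two-sided. Scripts were tested on simulated data. TPM served only to compare genes with each other. Alternatives were RLE scaling, DESeq2 1.42.0, no count filter, all 23 libraries in 1 fit, the replicate block and leaving out each library.

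The members and gene lists were chosen with earlier results of these data known. Some items are not reported here. The text names every member in all comparisons and, from each list, at most the 2 called genes that rose most and the 2 that fell most, given a mean of at least 10 CPM in the higher group. Ccl2 and Ccl12 in HPV+ over HPV− macrophages were added after their values were seen. Genes of like pattern needed a mean of at least 10 CPM in 1 group. Biological coefficients of variation were 16% (macrophages), 18.1% (lines), 40.2% (colony fit) and 17.6% (macrophages with lines).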

Additional observations from a re-analysis of the deposited data

Results flagged for a closer look

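The HPV+ over HPV− change differed between macrophages and tumour lines for Cx3cr1 and Ccr1, by a test of the difference itself, in which 41% of 15835 genes passed. For Cx3cr1 the macrophage change minus the line change was −2.15 ± 0.67 on the log2 scale (SE, edgeR adjusted p = 0.018). The lines held 4, 4 and 16 Cx3cr1 counts in HPV+ and 7, 7 and 3 in HPV−, and the adjusted p was 0.062 without HPV− line 3 and 0.26 without HPV+ line 3, with values of −1.75 and −1.27. For Ccr1 it was −2.37 ± 0.56 (SE, edgeR adjusted p = 0.0028), with 45, 37 and 16 line counts in HPV+ and 7, 7 and 2 in HPV−. Both differences rest on low line counts.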

How the results depend on the processing

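RLE scaling and testing without a count filter left the direction and the side of the threshold of all 64 member values as they were. Fitting all 23 libraries together, whose shared spread includes the variable colonies, kept 42 of 64. Calls lost in HPV+ over HPV− macrophages were Cx3cr1 (−1.76) and Ccr2 (−0.96), with 3709 genes called in all against 6853. For SCCVII over HPV− macrophages they were Cx3cr1 (0.71), Ccr1 (−1.48), Ccr2 (0.90) and Ccrl2 (−1.44), with 2943 genes called against 5528. Ccr1 (−1.63) and Ccr2 (1.86) lost theirs in SCCVII over HPV+ macrophages, as did Ccr1 in HPV+ (2.56) and SCCVII (2.25) over HPV− lines, and Cx3cr1 (−2.16) and Ccr1 (−2.41) in the macrophage minus line difference. Cx3cl1 in SCCVII over HPV− lines reversed to 0.07. Calls gained were Ccr2 in HPV− colonies over macrophages (−4.86), Ccr1 (−2.46) and Ccrl2 (−2.18) in SCCVII colonies over macrophages, Cx3cr1 (−2.78), Ccr2 (−7.26) and Ccrl2 (2.36) in SCCVII over HPV− colonies, Ccr2 (−8.16) and Ccrl2 (3.8) in the difference of the colony changes, and Cx3cl1 in HPV+ macrophages over lines (−1.25).

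DESeq2 kept 50 of 56 values and gained Cx3cl1 in HPV+ over HPV− macrophages (1.22), Ccr1 (−2.46) and Ccrl2 (−2.17) in SCCVII colonies over macrophages, Ccrl2 in SCCVII over HPV− colonies (2.38), Ccrl2 in the difference of the colony changes (3.83) and Ccrl2 in the macrophage minus line difference (3.45). Replicate numbers did not pair the samples (correlations of same-numbered libraries −0.106 to 0.189 among macrophages and −0.261 to 0.136 among lines). The colonies shared only 2 numbers across models, with correlations of 0.481 and 0.346. With the replicate block, Cx3cl1 gained a call in HPV+ over HPV− macrophages (2.23), in HPV+ macrophages over lines (−1.0) and in the macrophage minus line difference (2.88), as did Ccrl2 there (2.87) and Ccr1 (−3.64) and Ccrl2 (−2.82) in SCCVII colonies over macrophages. Cx3cl1 in the difference of the colony changes reversed to −0.20 under the block, where 1457 genes were called against 3918. The block changed no other member call. HPV− macrophage library 4 was the only library with its number, so the block gave it a term of its own. In effect it did not inform those comparisons. Without that library, and with no block, Cx3cl1 in HPV+ over HPV− macrophages changed by 2.29. What else moved these values was not tested.

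Leaving out 1 library at a time kept 391 of 429 member values. Among macrophages the changes of SCCVII over HPV− ran from 0.56 to 0.81 for Cx3cr1 and from −1.87 to −1.14 for Ccrl2, and Cx3cl1 in HPV+ over HPV− from 0.81 to 2.29. Among lines, Ccrl2 in HPV+ over HPV− ran from −1.09 to 0.82 (−0.45 without HPV− line 2), and Cx3cl1 from −1.48 to −0.09 in HPV+ over HPV−, −0.18 to 0.37 in SCCVII over HPV− and 0.06 to 1.45 in SCCVII over HPV+. In colonies over macrophages, Ccr2 ran from −11.47 to −4.18 in HPV− and −18.13 to −11.91 in SCCVII, and Ccrl2 in SCCVII from −4.48 to −1.32. The ranges in SCCVII over HPV− colonies were −3.42 to 1.0 for Cx3cr1, −1.07 to 2.47 for Ccr1, −12.43 to −0.68 for Ccr2 and 0.06 to 3.34 for Ccrl2, where the signs of Cx3cr1 and Ccr1 turned without HPV− colony 1 and SCCVII colony 1. For the difference of the colony changes they were −4.13 to 0.29 (Cx3cr1), 0.42 to 3.96 (Ccr1), −13.32 to −1.57 (Ccr2), 1.5 to 4.79 (Ccrl2) and −0.52 to 1.02 (Cx3cl1), with 2535 to 6949 genes called. Cx3cl1 in HPV+ macrophages over lines had a range of −1.48 to −0.11. In the macrophage minus line difference the ranges were −2.45 to −1.27 (Cx3cr1), −0.35 to 0.77 (Ccr2, −0.34 without HPV+ line 2), 2.70 to 4.59 (Ccrl2) and 1.3 to 2.75 (Cx3cl1).

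Without TMM scaling, the median gene of HPV+ over HPV− macrophages moved from −0.03 to −0.26 (log2), and the members' macrophage ratios moved with it. Depth limits the receptors in lines and colonies, where several libraries hold fewer than 10 counts.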
